A study of Saccharomyces cerevisiae with 2 samples.

Results

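The nucleotides of the 5.8S rRNA and of the second internal transcribed spacer (ITS2) were examined in total RNA of S. cerevisiae that was sequenced without rRNA depletion. The members were taken by position alone, as the stretch of the 35S pre-rRNA from the 5' end of the 5.8S rRNA to the last nucleotide before the 25S rRNA. They comprise 390 of the 6858 nucleotides of the 35S rRNA, together with 4 of the 7127 features of the count table, RDN58-1, RDN58-2, ITS2-1 and ITS2-2. The study compared wild type cells with the deletion strain npl3∆, which lacks the mRNA-binding guard protein Npl3, to examine its role in rRNA quality control. Both strains were grown at 25 °C, and 1 library per genotype was prepared from 200 ng of total RNA. The labels name no allele besides npl3∆. The study places its strains in the BY4741 background, with a few derived from S288C, and lists its npl3∆ single mutants as npl3::kanMX4 with auxotrophic his3, leu2 and ura3 alleles, without naming which strains were sequenced.

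With 1 library per genotype, no difference below has a replicate check, and no test between the genotypes was made. The 95% intervals cover counting error only. Those of coverage ratios treat the mean coverage of a window as a fragment count, so they are nominal. The count table held 421789474 counts in wild type and 401753674 in npl3∆. The deleted gene NPL3 had 1345 counts in wild type and 3 in npl3∆. The libraries also differed in mating-type genes: the receptor gene STE2 had 774 and 8 counts, and STE3 had 6 and 1326. Differences between the sequenced strains and the loss of Npl3 can therefore not be told apart.

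The 5.8S rRNA is the short rRNA of the large ribosomal subunit, where it pairs with the 5' part of the 25S rRNA. In the pre-rRNA both are joined by ITS2, which folds into a structure that assembly factors hold as the foot of the early 60S particle. The Las1 endonuclease cuts ITS2 at the C2 site. The upstream product, 7S pre-rRNA, is trimmed from its 3' end by the exosome with the helicase Mtr4 and then by Rrp6, Rex exonucleases and Ngl2 until the mature 5.8S end is reached. The downstream product is trimmed from its 5' end by Rat1 to the start of the 25S rRNA. Reads in the 5.8S sequence can thus come from mature rRNA as well as from precursors, whereas reads in ITS2 come from precursors or from excised spacer.

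Both sequences are shown because the difference between the genotypes in the deposited coverage changed in direction or in size at definite positions within them. They were read from the RefSeq copy of the genome build R64, on the minus strand of chromosome XII, at 455414 to 455571 for 5.8S and at 455182 to 455413 for ITS2 in rDNA copy 1, and are written 5' to 3' as DNA. In the 5.8S sequence, capitals mark the 143 consecutive nucleotides, 14 to 156, at which coverage was lower in npl3∆ than in wild type. In ITS2, capitals mark the 61 consecutive nucleotides, 64 to 124, at which coverage was at least 2-fold higher in npl3∆. They lie within a longer run, 27 to 155, at which it was higher, so they do not mark changes of direction. Positions are counted from the 5' end of each region. The other rDNA copy of the build, at 464551 to 464708 and 464319 to 464550, has the same sequence.
5.8S: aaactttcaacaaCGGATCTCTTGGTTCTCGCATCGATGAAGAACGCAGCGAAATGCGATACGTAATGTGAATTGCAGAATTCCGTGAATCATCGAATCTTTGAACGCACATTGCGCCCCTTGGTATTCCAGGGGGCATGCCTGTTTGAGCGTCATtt
ITS2: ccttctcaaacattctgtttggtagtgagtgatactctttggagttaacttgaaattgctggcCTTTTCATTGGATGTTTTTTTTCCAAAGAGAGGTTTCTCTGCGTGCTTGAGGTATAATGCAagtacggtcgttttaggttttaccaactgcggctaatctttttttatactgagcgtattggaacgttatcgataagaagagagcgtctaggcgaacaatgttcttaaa

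Counts of the 5.8S rRNA were lower in npl3∆ than in wild type, while those of ITS2 were slightly higher. RDN58-1 had 398224 counts in wild type and 285321 in npl3∆, and RDN58-2 had 414745 and 293108. The mean of these copies gave a ratio of 0.712 (95% interval 0.708 to 0.715, exact conditional binomial method). ITS2-1 had 98627 counts in wild type and 103111 in npl3∆, and ITS2-2 had 101460 and 106909. The mean ratio of ITS2 was 1.05 (1.04 to 1.06). Both copies of each region thus lay on the same side of 1, but they have the same sequence and are no replicates.

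These ratios were formed as deposited, without scaling. The remaining features of the table, all but the rRNA and the genes inside it, had 1.39 times as many counts in npl3∆, and relative to them 5.8S had a ratio of 0.512 and ITS2 of 0.755, below 1. Of the counts of these features ATG26 held 23.5% in wild type and 34.5% in npl3∆, and BDF1 had 505 and 50981. Leaving both genes out would raise each ratio relative to these features by a factor of 1.18, with ITS2 still below 1. The direction for ITS2 therefore depends on the denominator. Quotients of 2 regions within a library do not depend on library size, but they too depend on the region chosen as the reference. Per nucleotide, the counts of 5.8S amounted to 12.9% of the 25S level in wild type, against 9.43% in npl3∆, although each large subunit holds 1 molecule of both. The cause of this low level in both libraries was not tested. In npl3∆ the quotient was 0.730 times that of wild type (0.727 to 0.734, normal approximation on the log scale). The level of ITS2 relative to 5.8S, also per nucleotide, came to 16.8% for wild type and to 24.7% for npl3∆, 1.48 times as high (1.46 to 1.49). Relative to the 25S rRNA, ITS2 was 1.08 times as high in npl3∆ (1.07 to 1.09), and ITS1, the spacer upstream of the 5.8S rRNA, 1.63 times (1.62 to 1.65). Relative to ITS1, ITS2 was lower in npl3∆, 0.660 times the quotient of wild type (0.652 to 0.668). Of the 2 terms of the quotient ITS2 per 5.8S, the 5.8S level thus differed more between the libraries.

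The fragment coverage resolved these totals to single nucleotides. Of the 5.8S nucleotides, 14 (8.86%) had a higher coverage in npl3∆, and of the ITS2 nucleotides 142 (61.2%), against 44.5% of all nucleotides of the 35S rRNA. A coverage at least 1.5-fold lower was found at 86 nucleotides of the 5.8S rRNA (54.4%) and at 0 of ITS2, against 6.82% of the 35S rRNA. The median log2 ratio of the 5.8S nucleotides, -0.59, lies close to this cut. The share of 54.4% therefore depends on where the cut and the denominator fall. A coverage at least 2-fold higher was found at 61 nucleotides of ITS2 (26.3%) and at 0 of the 5.8S rRNA, against 2.39% of the 35S rRNA. The other nucleotides past this fold lay in the 5' ETS with 72 and in the 18S rRNA with 31. Neighbouring nucleotides share fragments and are no independent observations. Relative to the features outside the rRNA, 0 nucleotides of 5.8S and 36.2% of those of ITS2 were higher in npl3∆. A change of denominator shifts all log2 ratios alike and leaves their outline along the transcript as it is.

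**Figure D1:**
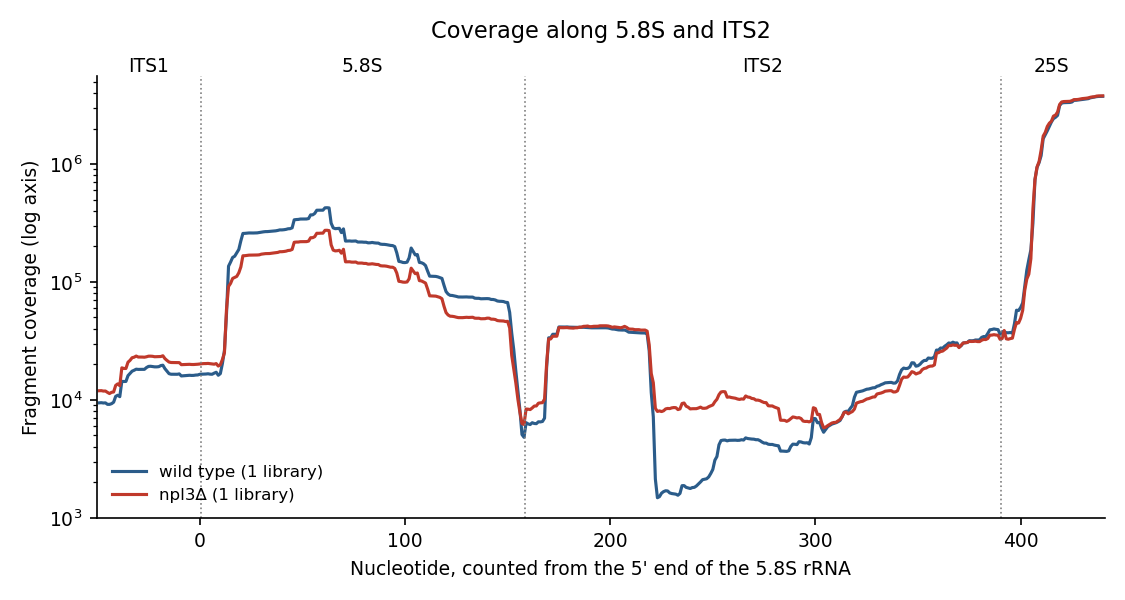
Fragment coverage (log axis) along the 5.8S rRNA, ITS2 and 50 nt on either side, 1 line per library, with dotted lines at the region boundaries. The npl3∆ line lies below the wild type over the 5.8S body, lies close to it in the block from nucleotide 12 to 60 of ITS2 (counted within ITS2, the axis from the 5.8S end), and lies above it in the trough that follows, where wild type reached its lowest value of 1480.

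Along the 5.8S rRNA both libraries had the same outline. Coverage was highest at nucleotide 62, with 426100 in wild type and 274400 in npl3∆, and lowest at the last nucleotide, with 4817 and 6195. The largest drop between neighbours lay at nucleotide 64 in both libraries, 109150 in wild type and 66100 in npl3∆, followed by those at nucleotides 71 and 65. The drops at nucleotides 64 and 71 lay about a read length downstream of large rises at nucleotides 14 and 21. Rises and drops so spaced can hold the same reads, which was not tested. The positions of these drops are therefore not taken as features of the 5.8S rRNA. Across the nucleotides of 5.8S, the log2 coverage of the libraries had a Pearson correlation of 0.993, which describes positions that share fragments.

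The lower level in npl3∆ was nearly uniform within the body of the 5.8S rRNA. Over its body, without the outer 20 nucleotides on either side, the mean coverage was 216996 in wild type and 142376 in npl3∆, a ratio of 0.656 (0.652 to 0.661). The log2 ratios of single nucleotides in the body ran from -0.65 to -0.49, with an SD of 0.034 over 118 nucleotides. With the outer 20 nucleotides left out in the same way, the SD was 0.42 in the 18S rRNA and 0.24 in the 25S rRNA. Over whole regions it was 0.25 in 5.8S, 0.44 in 18S and 0.25 in 25S, so the small spread holds for the body of 5.8S and not for its ends. The 18S and 25S stretches are far longer than this body, so the SDs are not like for like. Among short stretches the SD was 0.029 in nucleotides 21 to 50 of 25S and 0.020 in the last 20 of ITS1. It was 0.19 in the first 20 of 25S and 0.90 in 31 to 120 of ITS2. A small spread was thus not particular to 5.8S. Of the 16 windows of 10 nt (the last of 8 nt), 15 were lower in npl3∆. The lowest were 51 to 60, 21 to 30 and 41 to 50, with log2 ratios of -0.64, -0.63 and -0.62, and the highest were 1 to 10 with 0.28, the last window with -0.39 and the window ending at nucleotide 110 with -0.54.

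The 14 nucleotides that were higher in npl3∆ lay at the ends of the 5.8S rRNA. They were nucleotides 1 to 11, nucleotide 13 and the last 2 nucleotides. Nucleotides 1 to 10 had a mean coverage of 16620 in wild type and 20132 in npl3∆, a ratio of 1.21. The last 10 nucleotides of ITS1, just upstream, had 16168 and 20006, a ratio of 1.24. Between nucleotides 10 and 21 the coverage climbed from 16690 to 257850 in wild type and from 19860 to 166800 in npl3∆. The climb therefore lay inside the annotated 5' end of the 5.8S rRNA in both libraries, and nucleotides 1 to 10 had nearly the level and the ratio of the spacer before them. The largest single climbs in wild type were those at nucleotides 14, 46 and 21, with 82660, 48650 and 34650. In npl3∆ they were those at nucleotides 13 and 14, with 33255 each, and at nucleotide 21, with 32725.

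At the 3' end, the last steps of 5.8S maturation remove the remainder of ITS2. Coverage went down from 68220 at nucleotide 148 to 5081 at nucleotide 157 in wild type, and from 46645 to 6292 in npl3∆. The ratio of the genotypes thus passed from 0.684 to 1.24 within these nucleotides. Over the 8 nucleotides centred on the junction of 5.8S and ITS2, the mean coverage was 6912 in wild type and 8001 in npl3∆, a ratio of 1.16 (1.12 to 1.20, an interval that treats the mean coverage as a fragment count). The 2 nucleotides at the junction itself gave 1.30. A window of 20 nt, which includes more of the mature 5.8S rRNA, gave 0.848, so that the direction here depends on the width, as it does on the denominator with 0.832 relative to the features outside the rRNA. Nucleotides 1 to 10 of ITS2 had 6444 in wild type and 8972 in npl3∆, a ratio of 1.39 (1.35 to 1.44).

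**Figure D2:**
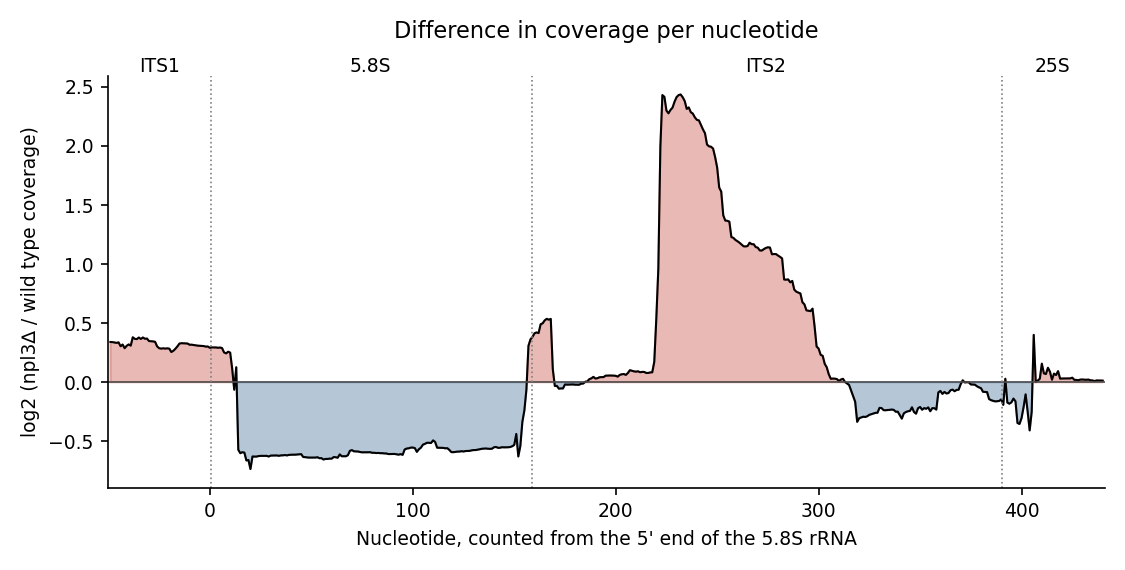
log2 ratio of the coverage of npl3∆ to that of wild type for each nucleotide from 50 nt upstream of the 5.8S rRNA to 50 nt into the 25S rRNA, with 1 library per genotype. The ratio is nearly flat below 0 across the 5.8S body, peaks at 2.44 in ITS2 and is mostly below 0 towards the 25S rRNA.

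The 5' part of ITS2, next to the 5.8S rRNA, carried a block of coverage with sharp edges. Its bounds were chosen after the values had been seen. The coverage stepped up from 7001 at nucleotide 10 to 33605 at nucleotide 12 in wild type and from 10150 to 32875 in npl3∆. The largest rises of ITS2 were those at nucleotides 12, 11 and 17, and the largest drops those at nucleotides 62, 61 and 64, in both libraries alike. Inside the block coverage stayed between 33605 and 41570 in wild type, and between 32875 and 42525 in npl3∆, up to nucleotide 60. The mean over the block was 39364 in wild type and 40325 in npl3∆, a ratio of 1.02 (1.01 to 1.04). From nucleotide 60 to 65 coverage then dropped from 36135 to 1480 in wild type and from 38300 to 7981 in npl3∆.

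The steps at the edges of this block were lower in npl3∆, although the coverage on either side was higher. The height of the upstream step was 26604 in wild type and 22725 in npl3∆, a ratio of 0.854. The downstream step had a height of 34655 and 30319, a ratio of 0.875. Because the steps lie about a read length apart, they can hold the same reads, and their ratios are no independent observations. The coverage just outside was 1.45 times that of wild type at nucleotide 10 and 5.39 times at nucleotide 65. The foot window, nucleotides 1 to 30, which holds part of the block, had a mean of 27902 in wild type and 28509 in npl3∆, a ratio of 1.02 (1.00 to 1.04), with 15 of its 30 nucleotides higher in npl3∆.

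Downstream of the block lay the largest difference of ITS2. The window from 71 to 80 had a mean coverage of 1693 in wild type and 8709 in npl3∆, a log2 ratio of 2.36. It was followed by 81 to 90, with 1980 and 8514 (2.10), and by 91 to 100, with 3817 and 10508 (1.46). The single nucleotide with the highest log2 ratio of the 35S rRNA, 2.44, was nucleotide 74, with 1587 in wild type and 8588.5 in npl3∆. The ITS2 minimum of wild type, 1480, lay nearby at nucleotide 65, while that of npl3∆, 5801, lay at nucleotide 146. From 65 to 140 all 76 nucleotides were higher in npl3∆, with a mean of 3386 in wild type and 8814 in npl3∆ and a ratio of 2.60 (2.50 to 2.71). These bounds too were chosen after the values had been seen. The broader window from 31 to 120, which includes part of the block, gave 15519 and 20286, a ratio of 1.31, with a median log2 ratio of single nucleotides of 1.15.

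The C2 site is cut by Las1 in the middle of ITS2. Since its position is not given in the sources used here, a window of the 40 nt that follow nucleotide 120 was taken as the C2 area. Its mean coverage was 5460 in wild type and 7116 in npl3∆, a ratio of 1.30 (1.26 to 1.35), and of 0.937 relative to the features outside the rRNA. With ATG26 and BDF1 left out of those features, the latter ratio would be 1.18 times as high, and the direction would not turn. Across the C2 area the log2 ratio came down to 0: its 4 windows of 10 nt had 0.95, 0.65, 0.16 and -0.03 in the order of the transcript. Coverage was higher in npl3∆ at 35 of the 40 nucleotides, and the last nucleotide of the run that began at nucleotide 27 was nucleotide 155. The inner 20 nt of the window gave 1.30 as well.

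On the 25S side of ITS2, coverage was lower in npl3∆ over most nucleotides. In the stretch between the C2 window and the last 20 nucleotides it was lower at all 52 nucleotides, with a mean of 19117 in wild type and 16832 in npl3∆, a ratio of 0.881 (0.862 to 0.899). The windows of 10 nt with the lowest log2 ratios of ITS2 all lay here, those ending at nucleotide 170 with 11958 and 9800 (-0.29), at 190 with 17854 and 14953 (-0.26) and at 180 with 13601 and 11556 (-0.23). Over the last 20 nucleotides the means were 34275 and 32430, a ratio of 0.946 (0.932 to 0.961). At the junction of ITS2 and 25S the 8-nt mean was 38141 in wild type and 34584 in npl3∆, a ratio of 0.907 (0.894 to 0.920), while at the upstream junction of ITS1 and 5.8S it was 16429 and 20187, a ratio of 1.23 (1.20 to 1.25). In the 25S rRNA coverage went from 37815 at nucleotide 1 to 3287500 at nucleotide 30 in wild type and from 33110 to 3360500 in npl3∆, where the ratio was 1.02. The ITS2 count ratio of 1.05 was thus an average over stretches that lay on both sides of 1.

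**Figure D3:**
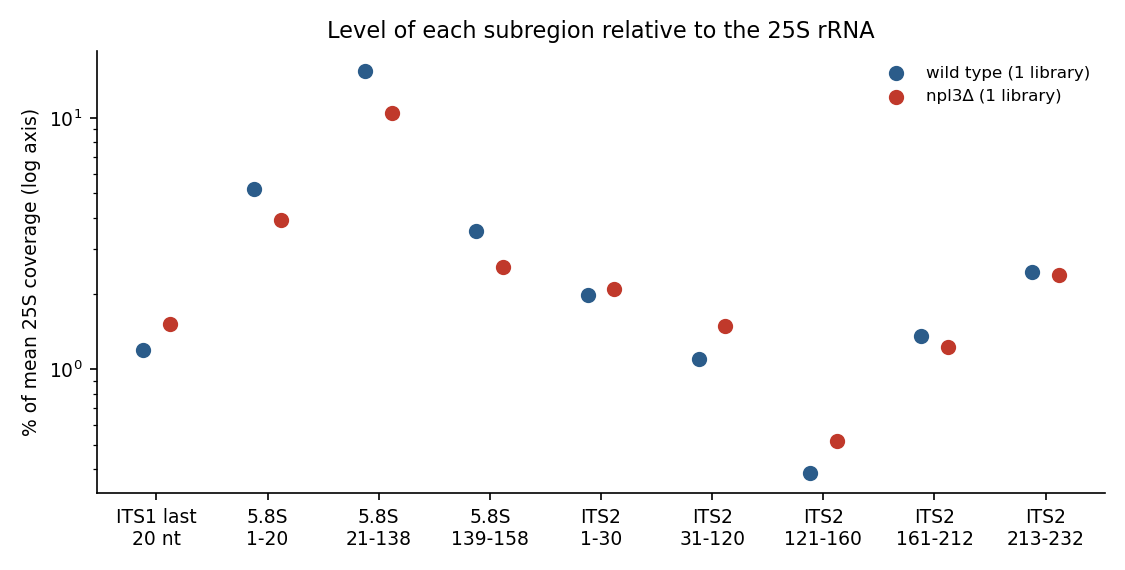
Mean coverage of each subregion as a percent of the mean 25S coverage of the same library (log axis), 1 point per library. The 5.8S subregions have lower points in npl3∆, the 5' part of ITS2 up to the C2 window has higher points, and the 25S side has points close to each other, 2.43% in wild type and 2.37% in npl3∆.

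Expressed per 25S coverage, which removes the difference in rRNA depth, the order of the 5.8S and ITS2 subregions was the same in both libraries with 1 exception: the stretch downstream of the C2 window lay above ITS2 31-120 in wild type and below it in npl3∆. In wild type the levels were 15.4% for the 5.8S body, 5.19% for its first 20 nucleotides and 3.55% for its last 20. In npl3∆ they were 10.4%, 3.94% and 2.56%. In ITS2 the levels in wild type were 1.98% for the foot side, 1.10% for 31 to 120, 0.387% for the C2 window, 1.35% for the stretch that follows it and 2.43% for the 25S side. In npl3∆ they were 2.09%, 1.48%, 0.521%, 1.23% and 2.37%. Relative to the 25S rRNA the body of the 5.8S rRNA was 0.678 times as high in npl3∆ and the C2 window 1.35 times.

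The mRNAs of 42 genes that act on ITS2 or on the ends of 5.8S and 25S were compared as background. Their counts were scaled by the sum over all features outside the rRNA. None of the 42 genes differed by 2-fold or more in either direction. Of 6118 genes, 8.14% were at least 2-fold higher and 4.3% at least 2-fold lower in npl3∆. These shares are not matched for count level. They include genes with as few as 10 counts in both libraries together. The list gene with the fewest counts, MPP6, had 66 in wild type and 76 in npl3∆. The median log2 ratio of the list was -0.091, with 18 genes above 0 and 24 below, and that of all genes was 0.016. ATG26 alone held 23.5% of these counts in wild type and 34.5% in npl3∆, and BDF1 had 505 and 50981. Scaling without both raised every ratio by a factor of 1.18, which moved the median of all genes by 0.24 to 0.26 and that of the list to 0.15, with 27 genes above 0 and 15 below. Relative to all genes the list stayed where it was: its median was 0.11 below theirs on the log2 scale under both scalings, with 25 of the 42 genes below the median of all genes.

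LAS1, which encodes the C2 endonuclease, had 89 counts in wild type and 143 in npl3∆, a scaled ratio of 1.16 (0.881 to 1.52). GRC3, its polynucleotide kinase partner, had 134 and 143, a ratio of 0.767 (0.602 to 0.979). Scaled without ATG26 and BDF1, LAS1 had a ratio of 1.37 and GRC3 of 0.907, and the interval bounds move by the same factor of 1.18. Among the foot factors, NOP53, whose product recruits Mtr4 to the pre-60S particle, had the highest ratio of the list with 173 and 371 counts, 1.54 (1.28 to 1.86). NOP15 had 318 and 485 counts (1.10) and CIC1 285 and 395 (0.997). Scaled without ATG26 and BDF1, NOP53 had a ratio of 1.82, NOP15 of 1.30 and CIC1 of 1.18, so that CIC1 turned direction.

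For 3' trimming, 12 of 17 genes had a log2 ratio below 0, against 48.7% of all genes. Scaled without ATG26 and BDF1, 7 of the 17 were below 0, against 29.2% of all genes. Under both scalings 13 of the 17 lay below the median of all genes. In the main scaling, 7 of 13 genes of 27SB pre-rRNA processing were below 0, and 3 of 6 of the ITS2 foot. So were 1 of 2 of C2 cleavage and 1 of 4 of 5' trimming. The median log2 ratio was -0.22 both for 3' trimming and for 27SB processing, so a lower median was not particular to 3' trimming. RRP6, the nuclear exosome exonuclease, had 412 counts in wild type and 416 in npl3∆, a scaled ratio of 0.726 (0.632 to 0.834). MTR4, the helicase that feeds the exosome, had 712 and 813 (0.821), and DIS3, the catalytic exosome subunit, had 530 and 505 (0.685). NGL2, which trims the last nucleotides of 5.8S, had 132 and 230 (1.25). RAT1, the 5' to 3' exonuclease, had 481 and 538 (0.804). The other extremes of the list were the 60S assembly factors CGR1 (1.52) and SPB4 (1.45) at the upper end and NOG2 (0.618) and NIP7 (0.684) at the lower end.

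**Figure D4:**
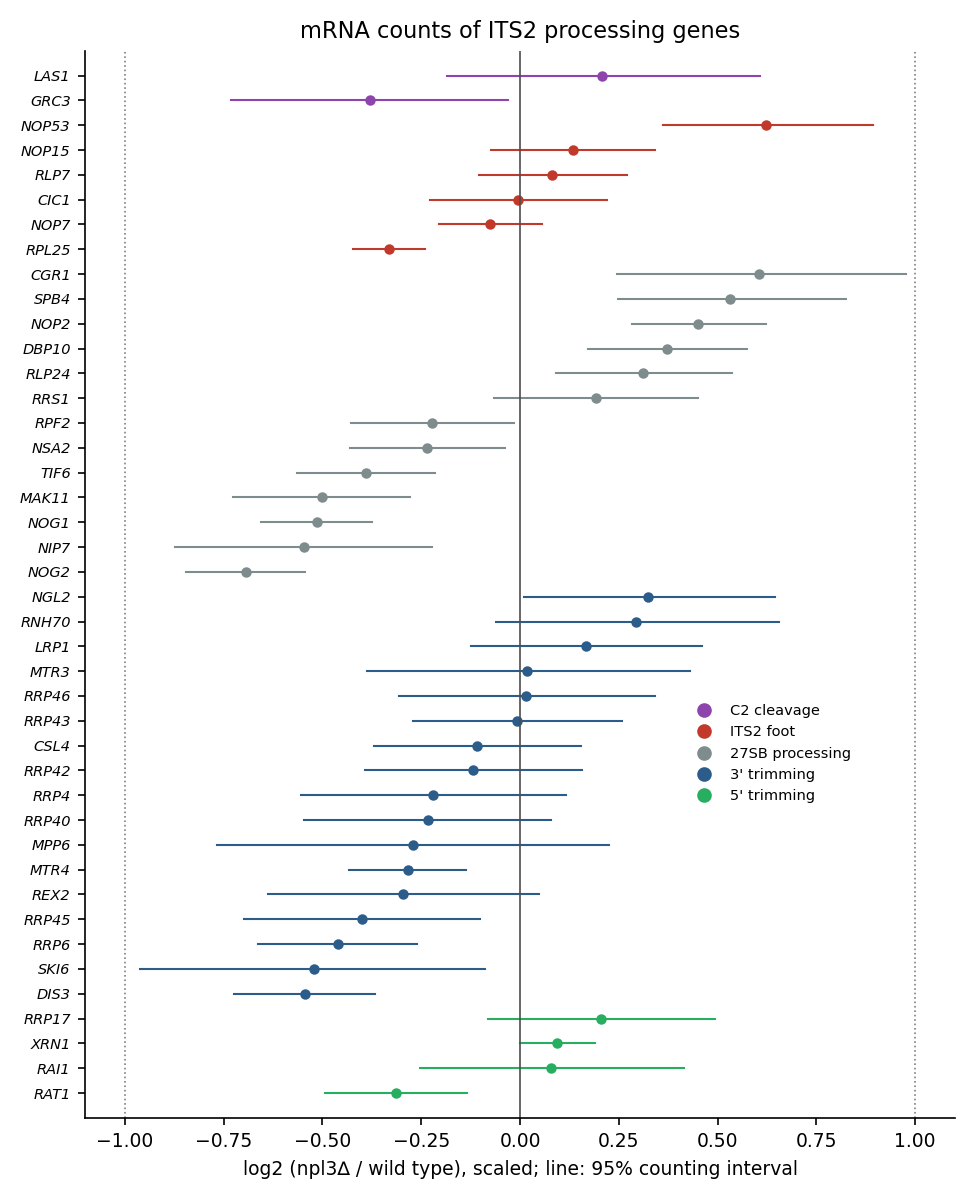
log2 ratio of npl3∆ to wild type for 42 ITS2 processing genes, scaled by the sum over features outside the rRNA, with 1 library per genotype. Points are coloured by role, horizontal lines are 95% intervals for counting error, and dotted lines mark 2-fold, beyond which 0 genes lie.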

How the data were processed

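Per the labels and methods, the authors mapped reads with HISAT2 to sacCer3 (R64) and counted them per feature with featureCounts. Versions and the treatment of multi-mapping reads are not given in the sources used here. The authors deposited raw whole-number counts, which list both rDNA copies and the 35S rRNA beside its parts. The deposited coverage is a signal of the reverse strand at each nucleotide, made by the authors with deeptools2. It steps in 0.5 at low values and is rounded at high values. Although its header reads 5' to 3', position 1 was taken as the 3' end: the mean coverage of 18S and 25S was then 122 times that of the spacers in wild type, against 1.51 times in the other reading.

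Coverage ratios used no pseudocount. Genes used a minimum of 10 counts and a pseudocount of 0.5. Intervals at the 95% level are exact conditional binomial unless stated, and the method was tested on simulated counts. For coverage ratios the rounded mean coverage of a window took the place of a count. Total depth was 421789474 and 401753674 counts. The text names the 3 highest and 3 lowest windows of 10 nt and the 3 largest rises and drops per region. Of the list it names LAS1, GRC3, RAT1, NOP15, CIC1, NOP53, MTR4, RRP6, NGL2, any gene past 2-fold, and the 3 highest and 3 lowest. STE2, STE3, ATG26, BDF1, the ITS2 block and the stretch from 65 to 140 were singled out after their values were seen. The members, lists and windows were chosen with earlier results of these data known. Alternatives concerned copies, scaling, window width and edges. Software was scipy 1.17.1, pandas 2.3.3, numpy 2.4.6 and matplotlib 3.10.9 under Python 3.11.15.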

Additional observations from a re-analysis of the deposited data

How the results depend on the processing

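Of 39 alternative values, 11 stayed near the main value, 22 moved further without turning, and 6 turned direction. Near means within the counting interval for the 5 ratios of counts or coverage, and within a nominal binomial range, which describes no independent observations, for the 6 shares of nucleotides and list medians. Relative to the features outside the rRNA, ratios were 0.512 for 5.8S and 0.652 at the ITS2-25S junction, and turned ITS2 to 0.755, the C2 window to 0.937 and the 5.8S-ITS2 junction to 0.832. With this centring 0% of 5.8S and 36.2% of ITS2 nucleotides were higher in npl3∆. Without ATG26 and BDF1 among the features outside the rRNA, each ratio relative to them would be 1.18 times as high. The C2 window would then not turn, while ITS2 and the 5.8S-ITS2 junction still would. Division by 25S counts gave 0.730 for 5.8S, 1.08 for ITS2 and 0.931 at the ITS2-25S junction, and 70.3% of ITS2 nucleotides were then higher. Copies 1 and 2 alone gave 0.716 and 0.707 for 5.8S, and 1.46 and 1.49 for the change of ITS2 per 5.8S. Coverage in place of counts gave 0.662 for 5.8S, 1.09 for ITS2 and 1.64 for ITS2 per 5.8S, and 1.71 without the outer 20 nt. Without these nt, 0% of 5.8S nucleotides were higher, and in windows of 10 nt 54.2% of ITS2 was. ITS2 coverage without nucleotides 12 to 64, an alternative chosen after seeing the data, gave 1.13. Window widths moved C2 to 1.24, the 5.8S-ITS2 junction to 1.30 (2 nt) and 0.848 (20 nt), and the ITS2-25S junction to 0.890 and 0.885. Without ATG26 and BDF1 the gene list median turned to 0.149 as that of all genes went to 0.255, so that its distance from all genes stayed at 0.11. Junction windows of every width take in mature rRNA by construction, and the cause of these moves was not tested. No paired analysis was possible because each genotype has 1 library. For the rRNA regions depth was not the limit, since intervals were narrow. In the gene list counts were far lower and some intervals wide, such as 0.881 to 1.52 for LAS1. The spread between libraries of a genotype is unknown.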

Other observations

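Counts and coverage weighed ITS2 differently. A count corresponded to 41.3 covered nucleotides within ITS2 in wild type and 42.8 in npl3∆, against 69.1 and 64.2 in the 5.8S rRNA and 70.9 and 70.4 in the 25S rRNA. For the 5S rRNA, another short rRNA with genes of its own, the unscaled ratio was 1.43 (1.38 to 1.48), where the 5.8S rRNA had 0.712. The mean count per 5S copy was only 5119 in wild type and 7320 in npl3∆, against 406484 and 289214 for 5.8S. The 5S ratio also lay close to the 1.39 of the features outside the rRNA.

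Runs of 7 or more T, searched on the RNA strand, occur 4 times in the 35S rRNA, 2 of them in ITS2 and 0 in the 5.8S rRNA. Nucleotides 78 to 85 of ITS2 lie in the trough downstream of the block, with a mean coverage of 1834 in wild type and 8639 in npl3∆ (log2 ratio 2.24). Nucleotides 163 to 169 of ITS2 had 12112 and 9955 (-0.28). Runs in ITS1 and the 18S rRNA had log2 ratios of 0.82 and -0.57, so that these runs had no common direction. Across windows of 10 nt, the GC content and the log2 ratio had a Pearson correlation of -0.015 over 23 windows of ITS2 and of -0.50 over 15 windows of the 5.8S rRNA. These are descriptions of neighbouring windows that share fragments. In the 5.8S rRNA a single window, 1 to 10, had both the lowest GC content, 20%, and the only log2 ratio above 0, 0.28. No correlation was formed without it, so the value of -0.50 is not taken as a trend along the 5.8S rRNA.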
